A study of Mus musculus with 33 samples.

Results

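Milk protein genes were examined in the mouse thymus, where they are among the tissue-restricted genes transcribed outside their usual organ. The members were chosen by symbol and comprise the casein genes Csn1s1, Csn1s2a, Csn2 and Csn3, the whey acidic protein gene Wap, and Wfdc18, which encodes a secreted WAP domain protein known from the mammary gland. They are represented by 12 of the 45037 probe sets of the array, namely 5 for Csn1s2a, 2 each for Csn2 and Csn3, and 1 each for Csn1s1, Wap and Wfdc18. The RNA donors were untreated as far as the labels say, all male C57BL/6J mice aged 4 to 6 weeks. The 33 arrays fall into 7 groups: microdissected whole medulla (n = 7) and whole cortex (n = 7), microdissected perimedullary, subcapsular and central cortex (n = 3 each), sorted medullary thymocytes gated as CD3 high and CD45 positive (n = 5), and sorted cortical thymocytes gated as CD45 positive, CD3 negative or low, and positive for CD90 or CD117 (n = 5). Means are given ± SD with these n throughout. Arrays are titled as biological replicates. Which regions came from which animal is not stated. If arrays of the same group share animals, the p-values are too small. If arrays of different groups share animals, the fit ignores that pairing.

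Caseins are the main phosphoproteins of milk and are packed into micelles, which kappa-casein stabilises, while whey acidic protein is a major soluble milk protein of rodents. In the mammary gland the genes are switched on in late pregnancy and lactation, when prolactin acts through its receptor, the kinase JAK2 and the transcription factor STAT5, together with glucocorticoid. In the thymus, medullary epithelial cells transcribe many genes of other organs, in part under the regulators AIRE and FEZF2, and present their products to developing T cells, and casein transcripts are a known example.

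Promoter windows are shown because STAT5 is the best known activator of casein genes and because the caseins form a gene cluster. The windows, from RefSeq on GRCm38.p6, run from 250 bases before to 50 bases after the annotated start, and 5 of the 6 genes have one. Capitals mark the STAT5 core motif TTCNNNGAA, which reads the same on both strands. The windows lie at chr5:87699376-87699675 on the minus strand for Csn2, at chr5:87665958-87666257 on the plus strand for Csn1s1, at chr5:87774200-87774499 on the plus strand for Csn1s2a and at chr11:83708754-83709053 on the plus strand for Wfdc18.
Csn2: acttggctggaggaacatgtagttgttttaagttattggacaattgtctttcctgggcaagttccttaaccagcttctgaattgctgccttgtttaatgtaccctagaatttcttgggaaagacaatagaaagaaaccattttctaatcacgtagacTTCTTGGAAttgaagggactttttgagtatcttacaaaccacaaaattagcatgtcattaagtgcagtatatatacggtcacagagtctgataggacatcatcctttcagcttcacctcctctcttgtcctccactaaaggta
Csn1s1: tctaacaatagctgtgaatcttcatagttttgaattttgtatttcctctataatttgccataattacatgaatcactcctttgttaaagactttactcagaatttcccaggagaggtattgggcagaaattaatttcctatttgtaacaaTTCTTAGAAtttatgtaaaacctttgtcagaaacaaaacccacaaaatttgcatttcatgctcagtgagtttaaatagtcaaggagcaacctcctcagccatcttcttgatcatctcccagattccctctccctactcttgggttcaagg
Csn1s2a: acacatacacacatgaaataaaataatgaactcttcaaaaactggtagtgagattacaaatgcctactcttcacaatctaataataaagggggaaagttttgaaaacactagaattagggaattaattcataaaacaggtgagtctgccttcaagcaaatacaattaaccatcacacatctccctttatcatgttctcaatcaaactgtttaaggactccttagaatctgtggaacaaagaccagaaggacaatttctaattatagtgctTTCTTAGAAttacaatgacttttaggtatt
Wfdc18: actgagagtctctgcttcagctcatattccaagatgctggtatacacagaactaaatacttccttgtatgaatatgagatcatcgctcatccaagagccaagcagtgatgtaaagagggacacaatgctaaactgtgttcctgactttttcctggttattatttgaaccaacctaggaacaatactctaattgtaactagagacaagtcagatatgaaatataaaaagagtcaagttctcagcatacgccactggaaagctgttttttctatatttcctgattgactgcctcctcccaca
The motif begins 93 bases before the start of Csn2, as TTCTTGGAA, and 100 bases before the start of Csn1s1, as TTCTTAGAA. In Csn1s2a it begins 20 bases after the start, again as TTCTTAGAA. The windows of Wfdc18 and of Wap hold 0 matches, and of all 32851 windows of this length 8.3% hold the motif. The motif TATAAA was searched on both strands as well, and occurs once in the Wfdc18 window, in 0 of the other 4 and in 13.6% of all windows.

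Each value below is the deposited signal of a probe set, a linear intensity scaled to the same mean on each array. Since probe sets differ in how brightly they bind, their signals were compared between groups and not between genes. Array medians ranged 71.9 to 163, and values below them are near background. Log2 signals of same-group arrays correlated at 0.916 to 0.984. An array was called wide-tailed where its brightest 0.1% of probe sets exceeded 42000, which held for whole medulla 1 to 5, whole cortex 1 to 5 and sorted medullary thymocytes 1 to 3. The dissection was checked on marker lists. The summed signal of 11 medullary epithelial markers ranged 20300 to 23200 in whole medulla against 1470 to 2040 in whole cortex, and 407 to 657 in sorted medullary thymocytes against 672 to 888 in sorted cortical thymocytes. The sum of 5 mature thymocyte markers ranged 33200 to 41600 in whole medulla against 2680 to 3930 in whole cortex, and 48200 to 65900 in sorted medullary against 960 to 1170 in sorted cortical thymocytes. Dendritic cell markers, 6 genes, summed to 24200 to 43300 in whole medulla against 881 to 1210 in whole cortex. Going the other way, 8 cortical epithelial markers summed to 26400 to 31300 in whole medulla against 71200 to 98100 in whole cortex. Of these 8 markers 5 were called lower in whole medulla and 0 higher. Krt8 and Foxn1 had higher means in whole medulla, at 10300 ± 1060 against 8640 ± 1170 and 700 ± 110 against 353 ± 96.2. Which cells gave the signal of these markers in whole medulla was not tested. No marker was at 0 in a group, but this does not show detection, since some were near background. Krt14 had 11.6 ± 3.4 in sorted medullary thymocytes and Fezf2 4.44 ± 0.589 in subcapsular cortex.

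**Figure D1:**
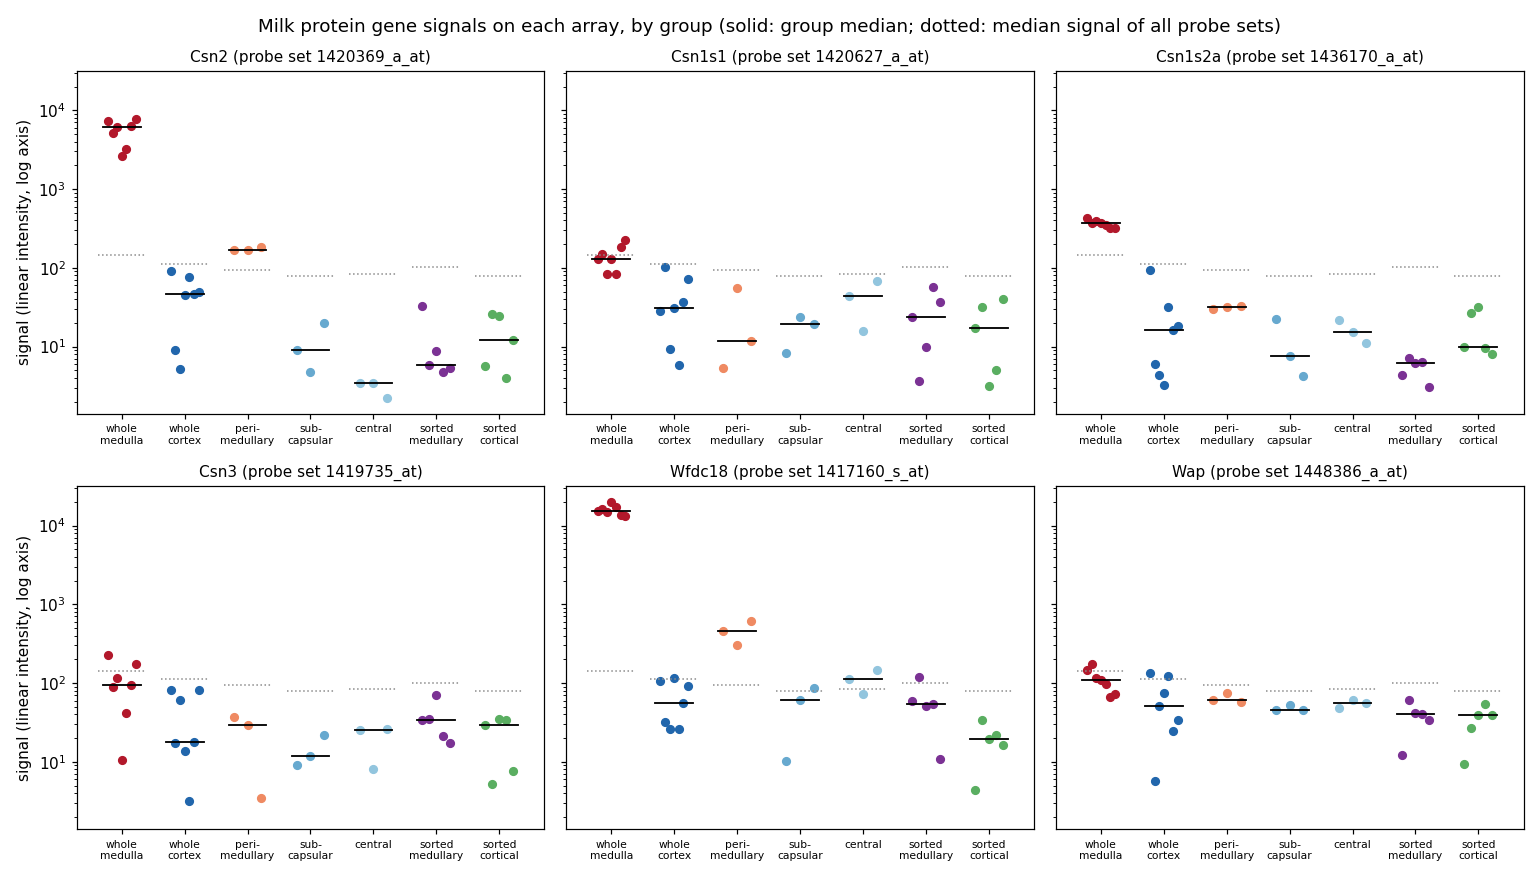
Signal of 1 probe set per milk protein gene on each of the 33 arrays (log axis), by group. Points are arrays, solid bars are group medians and dotted bars are the median signal of all probe sets on those arrays. Csn2 and Wfdc18 in whole medulla, at 2601 or more and 13200 or more, stand clear of all other groups, with the 3 perimedullary cortex arrays next.

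Whole medulla was set against whole cortex to ask which milk protein transcripts mark the medulla. Of the 5 genes that could be tested, 4 were called higher (Wfdc18, Csn2, Csn1s2a and Csn1s1), where a call needs an adjusted p below 0.05 and an absolute log2 fold change of at least 1 in limma. Of all 13463 genes tested, 18.7% were called higher in this comparison, 5.39% lower and 24% either way. The filter asked for a signal above the array median in at least 3 arrays. Csn1s2a met it through whole medulla arrays alone and Csn2 through whole medulla and perimedullary arrays alone, so the number of genes called is not support for a pattern. Csn3 exceeded the median in whole medulla replicates 1 and 7 only and has no test. Where whole cortex is near background, the size of a log2 fold change depends on the offset of 26.2 added to every signal. With an offset of 6.55 the values were 6.93 for Csn2, 7.98 for Wfdc18, 4.03 for Csn1s2a and 1.91 for Csn1s1.

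Csn2, beta-casein, had signals of 7381, 5173, 6059, 2601, 3198, 6318 and 7707 in whole medulla replicates 1 to 7, against 91.1, 9.16, 5.17, 45.5, 76.7, 47.1 and 48.9 in whole cortex replicates 1 to 7. Every medulla array was far above every cortex array, and the cortex signals were near background. The log2 fold change was 6.30 (SE 0.26, adjusted p = 3.1e-21), and the mean signal was 5490 ± 1970 in whole medulla against 46.2 ± 31.7 in whole cortex. The second probe set of Csn2, whose suffix marks probes shared by several transcripts, gave 1990 ± 660 in whole medulla against 61 ± 38.5 in whole cortex and was higher by 4.59 on the log2 scale (adjusted p = 1.3e-16, fitted at the level of probe sets).

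Wfdc18 had signals between 13200 and 20110 in whole medulla, with a median of 15360, against 26.2 to 115 in whole cortex, with a median of 55.9. The groups did not overlap. The mean was 15800 ± 2370 in whole medulla against 64.9 ± 38.9 in whole cortex, and the log2 difference was 7.55 (SE 0.26, adjusted p = 2.6e-23). Its single probe set has a shared suffix too, so transcripts of related sequence may add to it.

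Csn1s2a, an alpha-S2 casein, had signals of 435, 372, 388, 369, 353, 319 and 321 in whole medulla replicates 1 to 7, against 94.2, 6.04, 4.41, 3.29, 32.3, 16.3 and 18.3 in whole cortex replicates 1 to 7. The groups did not overlap, and cortex replicate 1 stood above the other cortex arrays. The log2 fold change was 3.11 (SE 0.23, adjusted p = 5.2e-14). A second probe set was higher too, at 223 ± 46.1 in whole medulla against 21.5 ± 26.3 in whole cortex, with a log2 fold change of 2.51. The other 3 probe sets of Csn1s2a overlapped between the groups and none passed the filter. For example, the brightest of them ranged 30 to 154 in whole medulla and 40.7 to 78.2 in whole cortex.

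Csn1s1, alpha-S1 casein, had signals of 128, 151, 82.9, 130, 83.5, 186 and 224 in whole medulla replicates 1 to 7, against 28.2, 103, 9.45, 30.8, 5.78, 36.6 and 72.5 in whole cortex replicates 1 to 7. The groups overlapped, since the highest cortex array exceeded the 2 lowest medulla arrays. The log2 fold change was 1.42 (SE 0.31, adjusted p = 0.00013). Wap had signals of 66.8 to 176 in whole medulla (median 108) against 5.66 to 134 in whole cortex (median 51.8). Wap was not called, since its log2 difference of 0.76 (SE 0.27, adjusted p = 0.015) was below the minimum size. Csn3, kappa-casein, had signals of 226, 89.4, 115, 10.4, 41.7, 95.8 and 176 in whole medulla replicates 1 to 7, against 82.5, 17.5, 60.2, 13.7, 3.21, 18 and 82.5 in whole cortex. Its means were 108 ± 74.3 in whole medulla and 39.7 ± 34.3 in whole cortex, and its second probe set gave 1.23 to 63 in whole medulla against 2.78 to 35 in whole cortex.

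**Figure D2:**
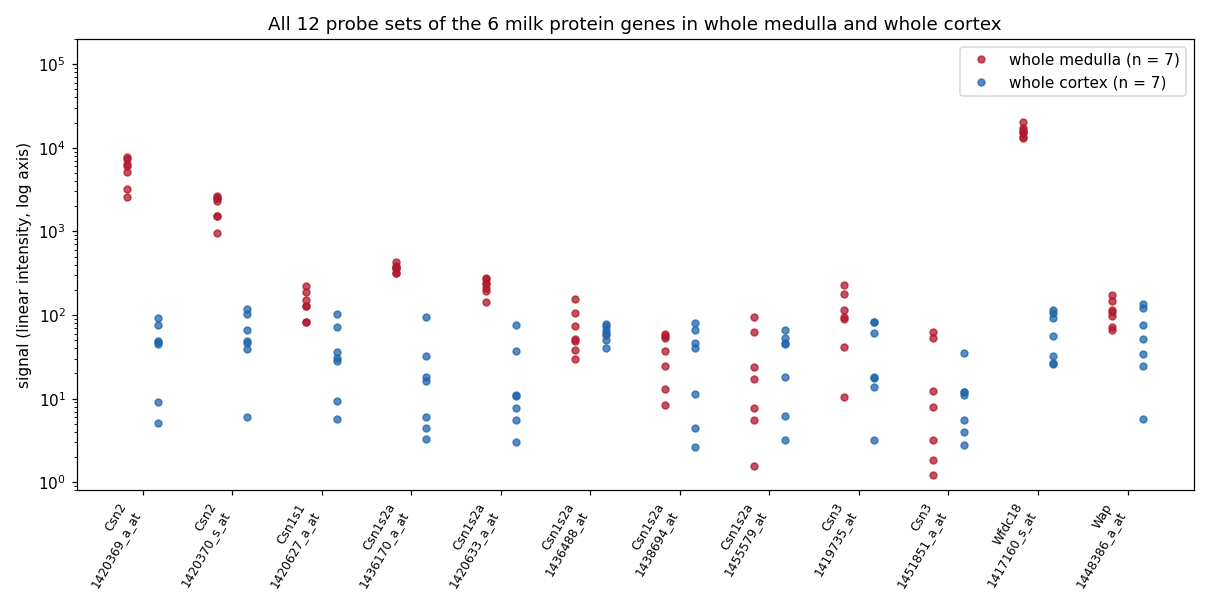
Signal on each whole medulla (red) and whole cortex (blue) array for all 12 probe sets of the 6 genes (log axis). Both Csn2 probe sets, 2 of the 5 Csn1s2a probe sets and the Wfdc18 probe set separate the groups fully, while the others overlap. The share of all probe sets that separate these groups was not counted, so how many do so here is no result about the genes.

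Wide-tailed and other arrays gave the same calls in whole medulla against whole cortex. Within the wide-tailed arrays the log2 fold changes were 6.19 for Csn2, 7.73 for Wfdc18, 3.15 for Csn1s2a and 1.36 for Csn1s1, and within the other arrays they were 6.56, 7.09, 3.00 and 1.55 in the same order of genes. The other markers that move with the medulla include 6 of 6 dendritic cell genes, 3 of 3 B cell genes and 5 of 6 genes of fibroblasts and smooth muscle, all called higher. Their part in the result was not tested. In dissected tissue, fewer cells of a type and less RNA per cell cannot be told apart.

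The 3 cortical subregions were compared next, to ask whether the genes differ with distance from the medulla. Csn2 and Wfdc18 were higher in perimedullary cortex than in either of the other subregions, and the other tested genes were not called. Csn2 had signals of 168, 169 and 182 in perimedullary cortex, against 8.99, 4.79 and 19.7 in subcapsular cortex and 3.41, 3.46 and 2.21 in central cortex. Every perimedullary array was above every other cortex subregion array. The log2 fold change was 2.43 (SE 0.40, adjusted p = 2.5e-05) over subcapsular cortex and 2.77 (SE 0.40, adjusted p = 1.2e-05) over central cortex. Both of those subregions were at background for Csn2, so the offset added before log2 sets the size of these values, which were 3.43 and 4.23 with an offset of 6.55 in place of 26.2. Wfdc18 had signals of 453, 305 and 606 in perimedullary cortex, against 10.3, 61.1 and 87.6 in subcapsular cortex and 113, 72 and 148 in central cortex. Its log2 fold changes were 2.70 (SE 0.40, adjusted p = 6.4e-06) over subcapsular and 1.80 (SE 0.40, adjusted p = 0.0059) over central cortex. So 2 of the 5 tested genes were called higher in each comparison, and 0 lower. Over subcapsular cortex 2.94% of all genes were called higher, 1.66% lower and 4.61% either way. Over central cortex 1.34% were called higher, 0.0371% lower and 1.38% either way. Leaving out central cortex replicate 2 or perimedullary replicate 3 ended the Wfdc18 call over central cortex, with a log2 fold change of 1.58 in both cases and adjusted p = 0.067 and 0.065. Csn1s2a (31.5 ± 1.52 in perimedullary, 11.3 ± 9.5 in subcapsular, 16.1 ± 5.29 in central cortex), Csn1s1 and Wap were not called. The second Csn2 probe set was not called, with signals of 75, 61.2 and 71 in perimedullary, 68.5, 72.2 and 82.5 in subcapsular and 64.9, 21.7 and 44.5 in central cortex. Its log2 fold change was -0.08 over subcapsular (adjusted p = 0.95) and 0.49 over central cortex (adjusted p = 0.99), so the perimedullary rise of Csn2 rests on 1 of its 2 probe sets. Subcapsular against central cortex called 0 of the 5 genes in limma, where 0.876% of genes were called higher, 0.446% lower and 1.32% either way. At an unadjusted p below 0.05 only Wfdc18 passed, with a log2 fold change of -0.91 (adjusted p = 0.19 in limma).

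Perimedullary signals were a small share of those in whole medulla. They came to 3.15% of the medulla mean for Csn2 and 2.87% for Wfdc18. Of the 11 medullary epithelial markers, each by 1 probe set, Fezf2 alone was lower, at 2.29% with a perimedullary mean of 66.2 near background. Next above were Krt14 (4.76%), Aire (5.22%) and Epcam (6.02%). A second probe set of Epcam that passed the filter went the other way. It had 1290 ± 600 in perimedullary cortex and 468 ± 154 in whole medulla. The dendritic cell marker Ccl22 stood at 4.66%. Over 11 medullary epithelial markers the share ranged 2.29% to 61%, with a median of 9.86%, and over 5 mature thymocyte markers 10.5% to 57.3%, with a median of 25.7%. Weak signals near background raise the share, as for Wap at 57.7%. Subregion and whole-region arrays may also differ in scale, which was not tested. Cd8b1, a thymocyte gene, had 30000 ± 7420 in whole cortex. Its subregion means were 2120 (subcapsular), 2490 (central) and 1980 (perimedullary). The second Epcam probe set had 150 ± 74.6 in whole cortex, below its mean in each subregion. The order of close shares is therefore not firm. The summed medullary epithelial markers were 2060 to 2280 in perimedullary against 1280 to 1640 in subcapsular and 1450 to 1540 in central cortex. Over subcapsular cortex, 5 of 5 mature thymocyte, 4 of 6 dendritic cell, 2 of 3 B cell and 3 of 11 medullary epithelial markers were called higher. Over central cortex, 5 of 5 mature thymocyte, 3 of 6 dendritic cell, 2 of 3 B cell and 1 of 11 medullary epithelial markers were called higher. The part of these cells in the rise of Csn2 and Wfdc18 was not tested. Wfdc17, a neighbouring WAP domain gene, had 865 ± 47.6 in perimedullary cortex and 889 ± 127 in whole medulla.

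**Figure D3:**
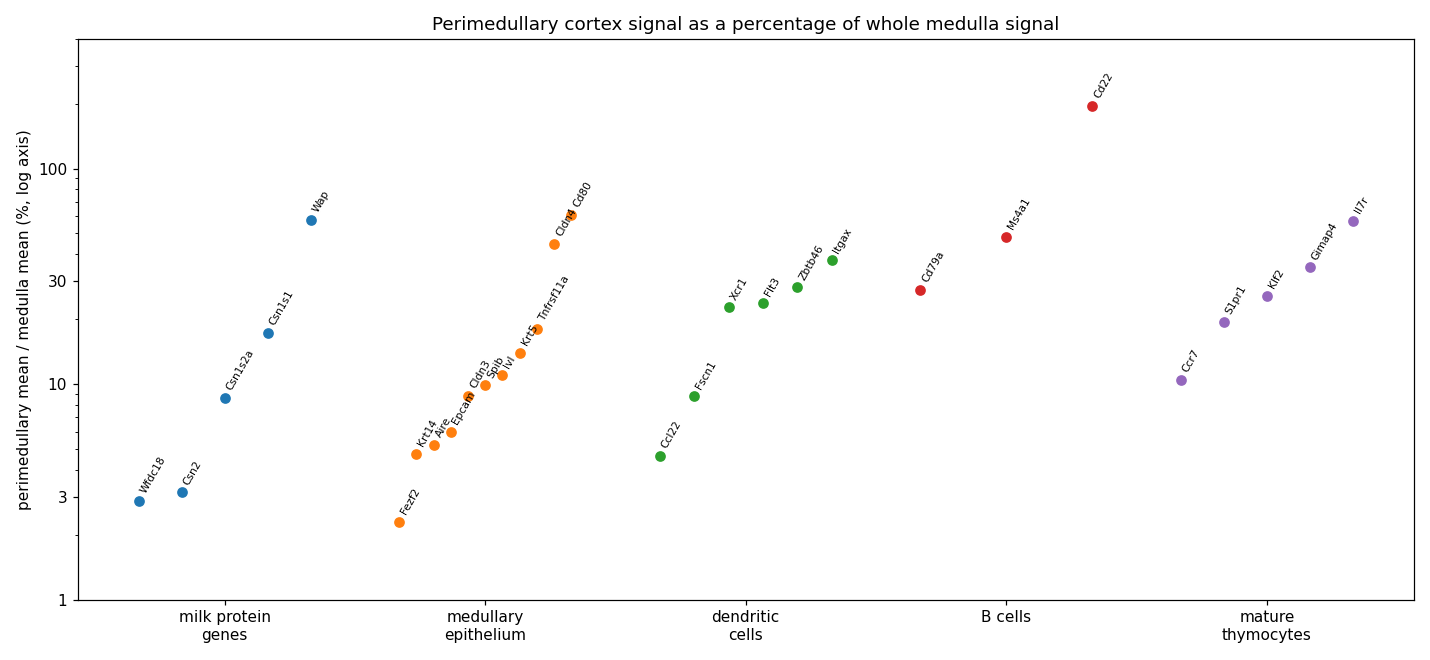
Mean signal in perimedullary cortex as a percentage of the whole medulla mean (log axis), for the 5 tested milk protein genes and for marker genes of 4 cell types. Wfdc18 and Csn2, at 2.87% and 3.15%, lie above Fezf2 (2.29%) and below the other 10 medullary epithelial markers and all dendritic cell, B cell and mature thymocyte markers plotted. Subregion and whole-region arrays may differ in scale, so the order of close shares is not firm.

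Sorted thymocytes were compared with the tissue they come from, to ask whether lymphoid cells carry these transcripts. In both sorted groups the milk protein genes were near background. Csn2 had 32.8, 5.90, 8.89, 4.74 and 5.42 in sorted medullary thymocytes replicates 1 to 5, and 5.58, 26, 24.5, 3.94 and 12 in sorted cortical thymocytes. Wfdc18 had 59.7, 120, 50.8, 54 and 10.9 in sorted medullary and 4.44, 33.6, 19.5, 22 and 16.5 in sorted cortical thymocytes. Of these signals, that of Wfdc18 in sorted medullary replicate 2 alone exceeded its array median. Sorted medullary thymocytes had 0 of the 5 genes called higher or lower against sorted cortical thymocytes, where 7.69% of genes were called higher and 6.31% lower. Wfdc18 alone had an adjusted p below 0.05 (0.034), with a log2 fold change of 0.81, and without sorted medullary replicate 5 it was called at 1.08. Whole medulla against sorted medullary thymocytes called all 5 higher (19.5% of all genes): Csn2 by 7.14, Wfdc18 by 7.65, Csn1s2a by 3.63, Csn1s1 by 1.71 and Wap by 1.11 on the log2 scale. Given how Csn1s2a and Csn2 met the filter, this count is not support for a pattern either. The sorted cells were near background, so these sizes depend on the offset of 26.2. With an offset of 6.55 they were 8.33 for Csn2, 8.15 for Wfdc18, 4.96 for Csn1s2a, 2.37 for Csn1s1 and 1.46 for Wap. The Wap call was lost without sorted medullary replicate 1 (log2 fold change 0.94). Tissue RNA and sorted cell RNA were prepared with separate kits, and the kit cannot be told apart from the sample type. Whole cortex against sorted cortical thymocytes called 0 of the 5 genes (9.64% of all genes were called higher), and Csn2 and Wfdc18 had adjusted p of 0.036 and 0.0096 at log2 fold changes of 0.73 and 0.92. Wfdc18 was called there, at 1.01 to 1.03, without whole cortex replicate 2, 3 or 5 or sorted cortical replicate 2.

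The interaction term asks whether medulla and cortex differ more in tissue than in sorted thymocytes. It was called as larger in tissue for 4 of 5 genes, and smaller for 0. Of all genes 12.8% were called larger, 2.22% smaller and 15% either way. It was 6.73 (SE 0.41, adjusted p = 2e-15) for Wfdc18, 6.41 (SE 0.40, adjusted p = 5e-15) for Csn2 and 3.53 (SE 0.36, adjusted p = 8.7e-10) for Csn1s2a. For Csn1s1 it was 1.24 (SE 0.47, adjusted p = 0.043), and this call was lost without any 1 of 13 of the 24 arrays, at 1.06 to 1.25: whole medulla 2, 6 and 7, whole cortex 1, 3, 4 and 5, sorted medullary 1, 2 and 3, and sorted cortical 1, 2 and 5. Wap was not called, at 0.67 (adjusted p = 0.24). The number of genes called is not support for a pattern here either, given how Csn1s2a and Csn2 met the filter.

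Among the whole medulla arrays Csn2 had a wide spread and Wfdc18 a narrower one. The Csn2 signal spanned 2.96-fold between the lowest array, replicate 4, and the highest, replicate 7, and its SD of log2 values was 0.601. That was the 98.7th percentile among the 4468 genes with a mean medulla signal of at least 1000, whose median SD was 0.196. In the same arrays Wfdc18 had an SD of 0.208 (55.3rd percentile) and a span of 1.52-fold, Aire 0.14 (22.9th percentile), Fezf2 0.266 (74.7th percentile) and Epcam, an epithelial adhesion molecule, 0.363 (91.5th percentile). After quantile normalization the Csn2 SD was 0.581. Both Csn2 probe sets were lowest in replicate 4, at 2601 and 963. Csn1s1 and Wap had SDs of 0.448 and 0.403 and Csn1s2a 0.145, at lower signals. Aire itself spanned 1.26-fold.

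**Figure D4:**
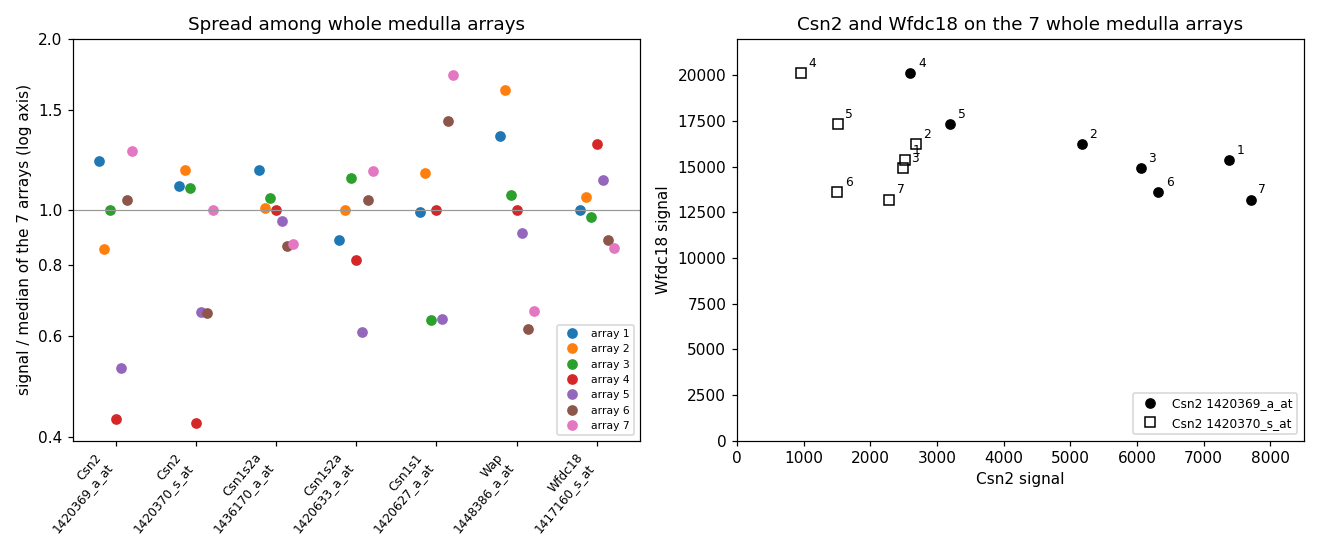
Left, signal of each tested milk protein probe set on the 7 whole medulla arrays divided by their median (log axis), coloured by array. Right, Csn2 against Wfdc18 signal on the same arrays (linear axes), with replicate numbers. Replicates 4 and 5 are lowest in the first Csn2 probe set and highest in Wfdc18.

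Pairs of the 5 tested genes, and each with Aire, gave 15 correlations over the 7 whole medulla arrays. No pair passed Benjamini-Hochberg adjustment in exact permutation tests. The largest was that of Csn2 with Wfdc18, at r = -0.91 (exact p = 0.00337, adjusted p = 0.0506) and rho = -0.893 (exact p = 0.0123, adjusted p = 0.0923). Without the 2 arrays farthest from the Csn2 median it was -0.622. With each array left out in turn r lay between -0.961 and -0.807. The pair passed without replicate 1 (exact p = 0.00139, adjusted p = 0.0208), and among the other 6 the adjusted p was 0.0625 to 0.417, the highest without replicate 4. After quantile normalization the pair passed as well (r = -0.993, exact p = 0.000794, adjusted p = 0.0119). All r of Csn2 here use its first probe set, and none was computed for the second. On the second, replicates 5 and 6 were alike, at 1510 and 1506, while Wfdc18 was at 17320 and 13600. Csn1s2a and Wap had r = 0.805 (exact p = 0.0282, adjusted p = 0.211), rho = 0.893 (exact p = 0.0123, adjusted p = 0.0923) and 0.729 without the 2 farthest arrays. Csn2 had r = 0.418 with Aire (exact p = 0.345, adjusted p = 0.575) and 0.0116 with Csn1s2a (exact p = 0.979, adjusted p = 0.979). The wide-tailed arrays are 5 of the 7, and r was not computed within them alone. The others, replicates 6 and 7, were the lowest for Wfdc18 (13600 and 13200), Csn1s2a (319 and 321) and Wap (66.8 and 71.9). They were the highest for Csn1s1 (186 and 224). The part of this split in the correlations was not tested.

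Over all 33 arrays, the genes most like Csn2 in log2 signal were Alox12e (r = 0.98), Clca3a2 (0.977), Gsta2 (0.975), Myl7 (0.974) and Kcnq3 (0.974). Those most like Wfdc18 were Rgs4 (0.977), Hdc (0.976), Dscaml1 (0.975), Kcnq3 (0.973) and Cadps (0.969). Csn1s2a was closest to S100g (0.966), Alox12e (0.965) and Csn2 (0.964), at rank 3 of all genes tested, followed by Dscaml1 and Mapk13 (0.962 each). Csn1s1 was closest to Shisa4 (0.833), Muc3 (0.82), Cyp2f2 (0.818), Gjb2 (0.818) and Rogdi (0.813). Wap was closest to Krt222 (0.826), Kdr (0.797), Krt76 (0.775), Farp1 (0.771) and Tfec (0.768). Arrays of a group share their region, and no p is given for these values.

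Other milk and mammary genes were counted from a list of 21, of which 12 were tested. In whole medulla against whole cortex 6 of 12 were called higher and 0 lower, with a median log2 fold change of 1.15 beside 0.11 over all genes. Over all genes tested 18.7% were called higher and 5.39% lower, which holds beside each count of a list or of neighbours that follows. Lpo, lactoperoxidase, had 1370 ± 367 in whole medulla against 34.3 ± 38.7 in whole cortex (log2 fold change 4.69), and Saa3, a serum amyloid A known from bovine milk, had 3080 ± 996 against 119 ± 68.5 (4.46). Pigr, the receptor that carries immunoglobulin A into milk, rose by 3.78 and Muc1, a mucin of the milk fat globule membrane, by 3.55. Lalba, alpha-lactalbumin, did not pass the filter and had 14.1 ± 13.6 in whole medulla and 13.7 ± 12.3 in whole cortex, and Csn1s2b, the other alpha-S2 casein gene, 40.6 ± 16.3 and 47.5 ± 35.6 in the same groups, so their whole medulla signals were near background. Also untested were Glycam1 (17.5 ± 12.4 against 19.6 ± 23.4), Btn1a1 (46.3 ± 20.8 against 60.2 ± 20.8) and, going the other way, Muc15 (99.4 ± 38.2 against 20.8 ± 30). Genes high in whole medulla alone could pass the filter, so the count of 6 is not support for a pattern.

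Of 17 lactogenic pathway genes 14 were tested, and 3 were called higher and 0 lower, with a median of 0.44. That count is near the 18.7% of all genes called higher and is no result about the list. They were Socs2 (4.18), Id2 (2.48) and Cish (2.29), where Socs2 and Cish are inhibitors induced by STAT5 and Id2 is an inhibitor of helix-loop-helix factors. Socs2 had 2350 ± 756 in whole medulla against 111 ± 52.8 in whole cortex, with 66.1 ± 4.52 in sorted medullary and 52.3 ± 13.5 in sorted cortical thymocytes. Cish had 1350 ± 180 in whole medulla against 259 ± 61.1 in whole cortex, but 797 ± 153 in sorted medullary against 129 ± 39.8 in sorted cortical thymocytes. Stat5a and Stat5b were not called, at 0.51 and -0.55. Elf5, a mammary transcription factor, and Prl did not pass the filter. Prlr, the prolactin receptor gene, had no probe set assigned to it alone and was not measured.

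Of 19 other WAP domain genes 8 were tested and 4 were called higher and 0 lower, beside 18.7% and 5.39% of all genes, with a median of 0.88. They were Wfdc2 (2.55), Wfdc17 (1.58), Wfdc21 (1.16) and Slpi (1.05), a secreted leukocyte protease inhibitor. The genes around the members were read from a RefSeq gene table within 500 kb. Beside the casein cluster 2 neighbours were tested. Amtn, amelotin of tooth enamel, was higher by 1.23 (192 ± 79.2 in whole medulla against 71.6 ± 43.8 in whole cortex), while Smr2, a salivary gene, was not called at 0.00253. Around Wfdc18, 5 of 16 tested genes were called higher and 0 lower, beside 18.7% and 5.39% of all genes, namely the chemokine genes Ccl5 (6.05), Ccl9 (3.81) and Ccl6 (2.89) with Wfdc17 and Wfdc21, which flank it directly. Around Wap, 2 of 14 were higher, Ramp3 (1.85) and Zmiz2 (1.23), and 1 lower, H2az2 (-1.63), shares near those of all genes. Of 13 medullary epithelial genes 12 were called higher, with a median of 3.38, led by Aire (5.63), Fezf2 (4.87), Krt14 (4.52) and Spib (3.83), a transcription factor.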

How the data were processed

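Per the labels, the deposited values are signal intensities, linear and 1 per probe set, made with Affymetrix Expression Console 1.0 and MAS5 from cRNA primed with oligo-dT (the submitters' processing notes and label protocol). No background setting, normalization between arrays or scan date is given in the sources used here, and no genome build. Values of an array were scaled on their own, since the mean signal without the lowest and highest 2% lay between 492.5 and 498.2. Tissue RNA was made with RNAqueous Micro kits and sorted cell RNA with RNeasy Mini kits, per the labels' protocols. Depth does not apply to arrays, and their number limits the precision.

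Of 45037 probe sets, 34945 had 1 symbol, 932 several and 9160 none in the platform annotation, and 34741 symbols were updated through a RefSeq table, which changed 0. An offset of 26.2 was added before log2. Probe sets above the array median in at least 3 arrays were kept (30045), and the highest mean represented a gene (13463 genes). The fit used limma 3.58.1 under R 4.3.3 on all 33 arrays, with a mean for each of the 7 groups and 26 residual degrees of freedom; p-values are 2-sided and adjusted by Benjamini-Hochberg over all genes. The fit was tested on simulated data. The members, lists and markers were chosen with earlier results of these data known. Named genes are the members, the 5 genes most like each tested member, up to 4 called genes of each list, every tested locus neighbour or up to 6, and Aire, Fezf2 and Epcam. Further genes are named where they limit a reading. Labelled replicate numbers were checked by correlating the deviations of same-numbered arrays from their group means. Of 7 pairs of whole medulla and whole cortex, 4 exceeded a correlation of 0.1, up to 0.257. In 3 of them the whole medulla array matched its own number best. The other pairs of groups checked had 0 or 1 above 0.1. Whether the numbers pair the groups is therefore not settled, and the fit does not pair them.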

Additional observations from a re-analysis of the deposited data

Results flagged for a closer look

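In 2 cases an array stood far from the others of their group, of 24 groups and genes tested (chance gives about 1 in 20). Csn1s2a in whole cortex replicate 1 was 94.2, against 3.29 to 32.3 in the other 6 arrays of whole cortex. That array was also the highest whole cortex array for both Csn2 probe sets and for Wap. Csn2 in sorted medullary thymocytes replicate 1 was 32.8, against 4.74 to 8.89 in the other 4 arrays. Both values lie below the median signals of the arrays.

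The compartment difference differed between tissue and sorted thymocytes for 4 of the 5 tested genes in limma, where 12.8% of all genes had a larger difference in tissue and 15% differed either way. It was larger in tissue by 1.24 for Csn1s1 (adjusted p = 0.043), by 3.53 for Csn1s2a (adjusted p = 8.7e-10), by 6.41 for Csn2 (adjusted p = 5e-15) and by 6.73 for Wfdc18 (adjusted p = 2e-15) on the log2 scale. In each the mean log2 signal of medulla tissue was higher than that of cortex tissue by the amounts given above. For Csn1s1 the arrays of medulla and cortex tissue overlapped. The Csn1s1 call was lost when any 1 of 13 of the 24 arrays was left out. The sizes depend on the offset where signals were near background. Since Csn1s2a met the filter through whole medulla arrays alone, and Csn2 through whole medulla and perimedullary arrays alone, the count of 4 is not support for a pattern.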

How the results depend on the processing

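No result reversed. The main counts of genes called were 3236, 2788, 1503, 1885, 620, 186, 178 and 2022 in whole medulla over whole cortex, whole medulla over sorted medullary thymocytes, whole cortex over sorted cortical thymocytes, sorted medullary over sorted cortical thymocytes, perimedullary over subcapsular, perimedullary over central, subcapsular over central cortex, and the interaction. A stricter filter left 9046 genes, 2 of them members, and called 2010 genes in whole medulla over whole cortex, 1371 in whole medulla over sorted medullary thymocytes, 912 in whole cortex over sorted cortical thymocytes and 1086 in the interaction, with 2 milk protein genes higher in the comparisons of whole medulla and in the interaction. At the level of 30045 probe sets the counts were 6172, 5348, 3734, 3891, 1256, 281, 286 and 3427 in that order. An offset of 6.55 called 2 members over sorted cortical thymocytes in whole cortex, 1 in sorted medullary over sorted cortical thymocytes and 1 in perimedullary over central cortex, and the other arrays alone called 1 in whole cortex over sorted cortical thymocytes. The wide-tail alternatives were added after seeing the data. Over all genes, whole medulla over whole cortex had a median of -0.0234 (log2) under quantile normalization and 0.109 without it. Quantile normalization put Csn2, by its first probe set, with Wfdc18 at r = -0.993 (exact p = 0.000794, adjusted p = 0.0119), 1 pair past adjustment against 0. Leaving out 1 array at a time gave 0 to 1 pairs, 0 to 1 members in whole cortex over sorted cortical and in sorted medullary over sorted cortical thymocytes, and 1 to 2 in perimedullary over central cortex. With the replicate number as a block, whole medulla over whole cortex called 3236 genes and 4 members, and no call of a member changed. Whether the numbers pair the samples is not settled. Among single genes, Wap was called in whole medulla over whole cortex at the offset of 6.55 (1.06) and lost over sorted medullary thymocytes under quantile normalization (0.648). The Csn1s1 interaction was lost under 7 alternatives, at 0.804 to 1.61, and the Wfdc18 call in perimedullary over central cortex at the offset of 6.55 (1.97, adjusted p = 0.064). These causes were not tested. Probe sets with a plain suffix left no member to test. Signals near background limit Csn1s1, Csn3 and Wap.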
